A study of Rattus norvegicus with 4 samples.

Results

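The receptors for glutamate and GABA, the main excitatory and inhibitory transmitters of the brain, were followed in rat striatum after gamma knife irradiation. Members were chosen by gene symbol from the array annotation. The choice gave 42 genes, read by 62 array features, of 14871 named genes and 43628 features in all. They comprised 17 subunits of ionotropic glutamate receptors, 7 metabotropic glutamate receptors, 16 subunits of the GABA-A receptor and 2 of the GABA-B receptor. Another 5 genes of these families in the RefSeq gene table were not analysed here. Grid2ip, which shares the first letters of the delta receptors but encodes a protein that binds one of them, was placed with the receptor partners instead.

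The study used 4 adult male Wistar rats. In irradiated rats a Leksell gamma knife, which converges gamma rays on a small target, gave 1 striatum a central maximum of 60 Gy through a 4 mm collimator in 30 min, and tissue was taken 16 h later. The irradiated left striatum was compared with the left striatum of control rats, and the un-irradiated right striatum of these animals with the right striatum of control rats. Each side was hybridised on 2 two-colour arrays with the dyes exchanged. The labels give both of them replicate number 1 with identical source names. A side was therefore treated as 1 replicate, nothing was tested, and no value carries an error between animals. RNA was drawn from individual rats per the series' description, and which rat supplied which array is not given.

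Ionotropic glutamate receptors are tetrameric channels for fast excitation, of which the AMPA, kainate and NMDA types open to glutamate in the striatum at the inputs from cortex and thalamus. Metabotropic receptors signal through G proteins. GABA-A receptors are pentameric chloride channels, and GABA-B receptors are G protein-coupled pairs of a GABA-binding and a signalling subunit. The striatum is built mostly of GABA-releasing projection neurons, so both families are central to its output.

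Values are log2 ratios of experimental over control RNA. Probes of a gene were averaged on each array, and a pair of readings gives array 1 before array 2. Where a mean over the 2 arrays is given, the figure after ± is the distance of either array from it. This spread contains the dye effect, and whether it also contains differences between rats is not known. A receptor was called higher or lower where both readings of a side exceeded 1.5-fold, a log2 ratio of 0.585, with one sign. The table holds ratios without brightness, so neither the level of a receptor nor the presence of the defining markers of striatum could be checked.

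Array 1 carried experimental RNA in Cy5 and array 2 in Cy3, and the deposited values were read as not yet turned for this. Across all features the deposited columns of a side correlated at r = 0.743 (left) and 0.666 (right), while the rank correlations were 0.233 and 0.260. With array 2 turned, as in the values reported here, r was -0.743 and -0.666. Over all features the 2 arrays of a side therefore opposed each other in the reported values. A positive correlation by itself does not tell whether array 2 had already been turned. Ccng1, a p53 target, went the other way: its first probe stood at 0.615 and -0.615 (deposited log10) on the left pair, and at 0.404 and -0.406 on the right pair, as an RNA difference does when the dyes are exchanged. Read this way, Ccng1 was above control on the un-irradiated right side as well as on the left. The cause of its right value was not tested.

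On the un-irradiated right side, the metabotropic receptor Grm8 and the GABA-B subunit Gabbr2 were higher than in control striatum, and the delta receptor Grid1 was lower. On the irradiated left side the NMDA receptor subunit Grin2c was lower, and 0 receptor genes were higher. By the rule, each of these calls needed both arrays of its side. The AMPA, kainate and most NMDA and GABA-A subunits stayed within 1.5-fold of control on both sides by their means.

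The windows before the starts of 3 of these 4 genes are shown so that the promoters of Grm8 and Gabbr2, the genes higher on the right, can be set against that of Grin2c. Each is the 250 bases before the RefSeq start in GRCr8, read 5′ to 3′ on the gene's strand, which was minus for all of them. Grid1 had no entry. Capitals mark matches on either strand to 4 motifs, none of which overlapped in these windows. GGGCGG is the GC box. The letters CCAAT are the box of that name. CAGATG is an E-box bound by NeuroD factors. The cyclic AMP response element is TGACGTCA.
Grm8 at chr4:57687507-57687756: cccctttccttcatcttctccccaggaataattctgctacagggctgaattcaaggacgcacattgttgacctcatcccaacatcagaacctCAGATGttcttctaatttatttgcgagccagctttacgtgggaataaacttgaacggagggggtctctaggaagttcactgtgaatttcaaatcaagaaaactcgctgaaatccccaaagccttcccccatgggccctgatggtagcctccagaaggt
Gabbr2 at chr5:66083696-66083945: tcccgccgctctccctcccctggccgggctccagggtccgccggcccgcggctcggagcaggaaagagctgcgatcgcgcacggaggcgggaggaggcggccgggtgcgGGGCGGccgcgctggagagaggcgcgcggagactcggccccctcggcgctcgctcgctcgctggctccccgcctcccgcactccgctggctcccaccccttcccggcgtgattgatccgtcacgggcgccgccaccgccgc
Grin2c at chr10:101005139-101005388: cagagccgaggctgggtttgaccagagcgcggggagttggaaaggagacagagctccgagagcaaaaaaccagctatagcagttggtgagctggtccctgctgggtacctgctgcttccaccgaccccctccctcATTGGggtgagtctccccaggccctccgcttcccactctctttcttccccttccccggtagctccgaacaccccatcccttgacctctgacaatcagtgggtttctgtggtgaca

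The promoters of Grm8 and Gabbr2 differed in base composition, with 47.2% and 78.8% G or C and 5 and 39 CpG dinucleotides, and that of Grin2c held 59.6% and 8. The Grm8 window held 1 CAGATG, the Gabbr2 window 1 GGGCGG and the Grin2c window 1 CCAAT, with no other match. No motif was shared by Grm8 and Gabbr2. Of the 30 member genes with an entry, 11 held GGGCGG (36.7%, against 32.4% of 27457 promoters), 12 held CCAAT (40%, against 34.3%), 4 held CAGATG (13.3%, against 13.7%) and 0 held TGACGTCA (against 1.70%). The median G or C content was 58.6% over those members and 52% over all promoters.

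**Figure D1:**
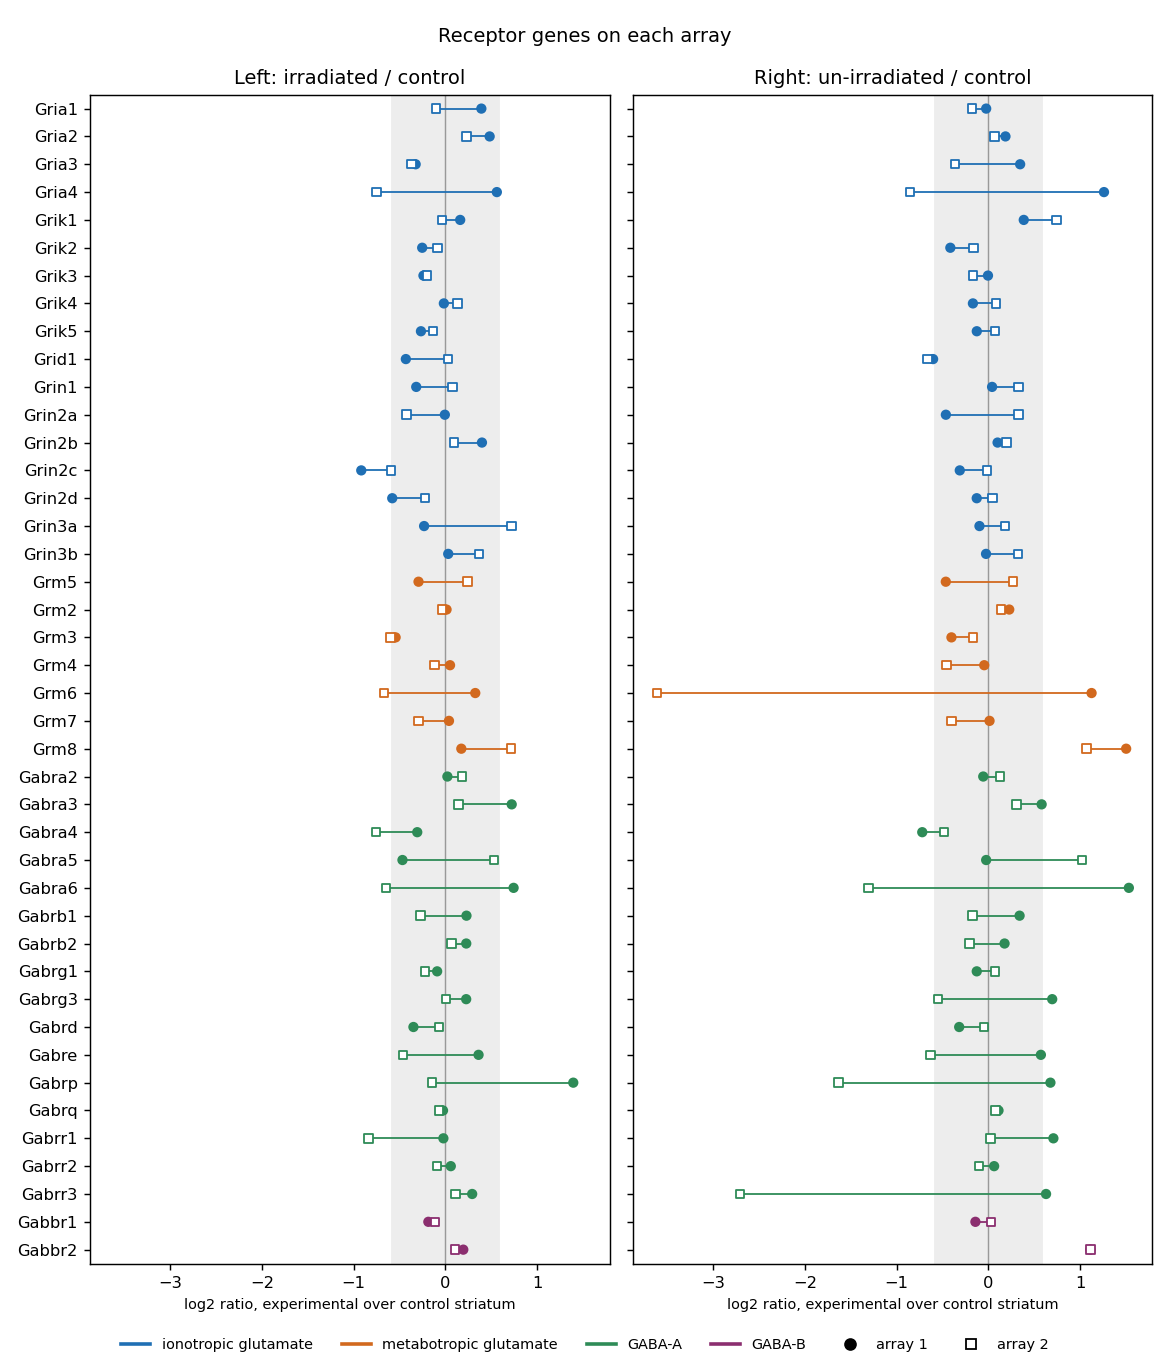
Log2 ratio of experimental over control striatum (horizontal axis) for the 42 receptor genes (rows, coloured by family) on array 1 (filled circle) and array 2 (open square) of the left and right sides; the line joins the arrays and the grey band marks 1.5-fold either way. Grin2c on the left lies wholly below the band, as Grid1 does on the right. Grm8 and Gabbr2 lie wholly above it on the right. Gria4, Grm6, Gabra6, Gabrp and Gabrr3 on the right span it from side to side, as Gabra6 does on the left.

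By the call rule, 0 of 42 receptor genes were higher and 1 was lower on the left, where 1.18% of all named genes were higher and 1.03% lower. On the right 2 were higher and 1 lower, where 1.71% of all named genes were higher and 1.46% lower. Counts of 0 to 2 genes do not set the receptors apart from genes at large. At 2-fold the 2 right-higher genes remained and no other passed on either side, against 0.330% higher and 0.188% lower of all genes on the left and 0.504% and 0.377% on the right. At 1.3-fold Grm3 was added among the lower genes on the left (2 lower and 0 higher; 2.51% and 2.67% of all genes), and Grik1 among the higher and Gabra4 among the lower genes on the right (3 higher and 2 lower; 3.46% and 3.18%). Counted by feature, 1 of 62 was lower and 0 higher on the left (1.23% and 1.42% of 23535 named features), while 3 higher and 1 lower feature stood on the right (2.12% and 1.67%).

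The median over the 42 genes was -0.03 on the left and -0.02 on the right, beside 0.00 and -0.01 over all named genes. Without regard to sign, the typical distance from control was 0.16 on the left and 0.15 on the right, beside 0.15 and 0.16 over all named genes. On the left 10 members (23.8%) were above 0 on both arrays and 14 (33.3%) below, where 23.0% of all genes were in each case. On the right 10 (23.8%) were above and 9 (21.4%) below, where 21.4% and 21.6% of all genes were. The share below control on the left was the widest of these gaps.

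The fast AMPA channels, which carry most excitatory current, showed no member past the rule. Gria2, the subunit that keeps these channels from passing calcium, was 0.48 and 0.23 on the left pair and 0.19 and 0.06 on the right pair. Its 2 probes gave left means of 0.33 and 0.38. All of these readings were above control and below the threshold. Gria1 had 0.14 ± 0.25 on the left and -0.10 ± 0.08 on the right. Gria3 had -0.35 ± 0.02 on the left, below control on both arrays, and -0.01 ± 0.36 on the right. Its probes disagreed on the right, where the RefSeq mRNA probe gave 0.16 ± 0.04 and the others 0.27 ± 0.04 and -0.46 ± 1.07. Averaged over its probes, Gria4 had arrays that opposed each other on both sides, at 0.56 and -0.75 on the left and 1.26 and -0.85 on the right. Its probes disagreed. A RefSeq mRNA probe read 0.14 and 0.08 on the left pair and 0.28 and 0.36 on the right pair, above control and below the threshold. Every other probe of the gene, a RefSeq mRNA probe among them, changed sign between arrays on both sides.

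Kainate receptors act at synapses on both sides of the cleft. Grik1, which forms channels by itself, had 0.16 and -0.04 on the left pair and 0.39 and 0.74 on the right pair. It was above control on both right arrays and short of the threshold on one. Its probes disagreed on the right, where the RefSeq mRNA probe gave 0.57 and 1.31 and the other 0.20 and 0.17. Grik2, a second channel-forming subunit, had -0.17 ± 0.08 on the left and -0.29 ± 0.13 on the right, and Grik3 -0.22 ± 0.02 and -0.09 ± 0.08. The high-affinity partners Grik4 and Grik5 had 0.06 ± 0.08 and -0.20 ± 0.07 on the left and -0.04 ± 0.13 and -0.03 ± 0.10 on the right. The class median was -0.17 on the left and -0.04 on the right.

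Grid1 encodes GluD1, a receptor relative that organises synapses by binding secreted cerebellins. It stood at -0.43 and 0.03 on the left pair and at -0.60 and -0.66 on the right pair. Only the right side was past the threshold, at -0.63 ± 0.03 or 1.55-fold lower than control, on a single probe. By its right value Grid1 ranked 837 from the lowest of 14871 genes. It remained past the threshold with each array centred on its median, at -0.63 on both.

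NMDA receptors need glutamate together with glycine or D-serine, and their Grin2 subunits set the kinetics. Grin2c, a subunit typical of cerebellar granule cells and, in the forebrain, of astrocytes, had -0.92 and -0.59 on the left pair and -0.31 and -0.02 on the right pair. All 4 readings were below control, and only the left pair was past the threshold. The left mean of -0.76 ± 0.16 is 1.69-fold lower than control and ranked 253 from the lowest of 14871. The call is marginal: with each array centred on its median, array 2 read -0.58 and the call was lost. Its relative Grin2d had -0.58 and -0.22 on the left pair, below control on both, and -0.13 and 0.04 on the right pair.

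The remaining NMDA subunits lay closer to control. The obligatory Grin1 had -0.12 ± 0.20 on the left and 0.18 ± 0.14 on the right, and Grin2b, a main partner in striatum, 0.24 ± 0.15 and 0.15 ± 0.05. Grin2b was above control on all 4 arrays. Grin2a had -0.22 ± 0.21 and -0.07 ± 0.40, and its 2 probes, both RefSeq mRNA probes, lay apart at -0.59 and 0.16 on the left. The glycine-binding Grin3a and Grin3b had 0.24 ± 0.48 and 0.20 ± 0.17 on the left and 0.04 ± 0.14 and 0.15 ± 0.17 on the right.

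Metabotropic receptors of group I raise calcium, and those of groups II and III inhibit adenylyl cyclase. Grm5, the group I receptor of projection neurons, had -0.03 ± 0.27 on the left and -0.10 ± 0.36 on the right. Grm3 of group II, which astrocytes carry as well as neurons, had -0.54 and -0.60 on the left pair and -0.40 and -0.17 on the right pair. All 4 were below control, and left array 1 fell just short of 0.585, so it lies just outside the rule where Grin2c lies just inside. Grm2 had -0.01 ± 0.03 on the left and 0.18 ± 0.05 on the right.

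Grm8, a presynaptic group III receptor of high glutamate affinity, had the largest right value of the 42 genes. Over its 2 probes it read 0.17 and 0.71 on the left pair and 1.5 and 1.07 on the right pair. It was above control on all 4 arrays, and both right readings exceeded both left readings. The right mean of 1.29 ± 0.22 is 2.44-fold above control and ranked 146 of 14871. Both probes passed on the right, the RefSeq mRNA probe at 1.64 and 1.42 and the other at 1.37 and 0.72. On the left both probes had similar means, 0.43 and 0.45, and neither passed.

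Of the other group III receptors, Grm4 had -0.04 ± 0.09 on the left and -0.25 ± 0.21 on the right, and Grm7 -0.13 ± 0.17 and -0.19 ± 0.21. Grm6, known from ON bipolar cells of the retina, read 0.32 and -0.67 on the left pair and 1.12 and -3.61 on the right pair. Its arrays disagreed in sign on both sides, so its right mean of -1.24, the lowest of the 42, has no direction.

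**Figure D2:**
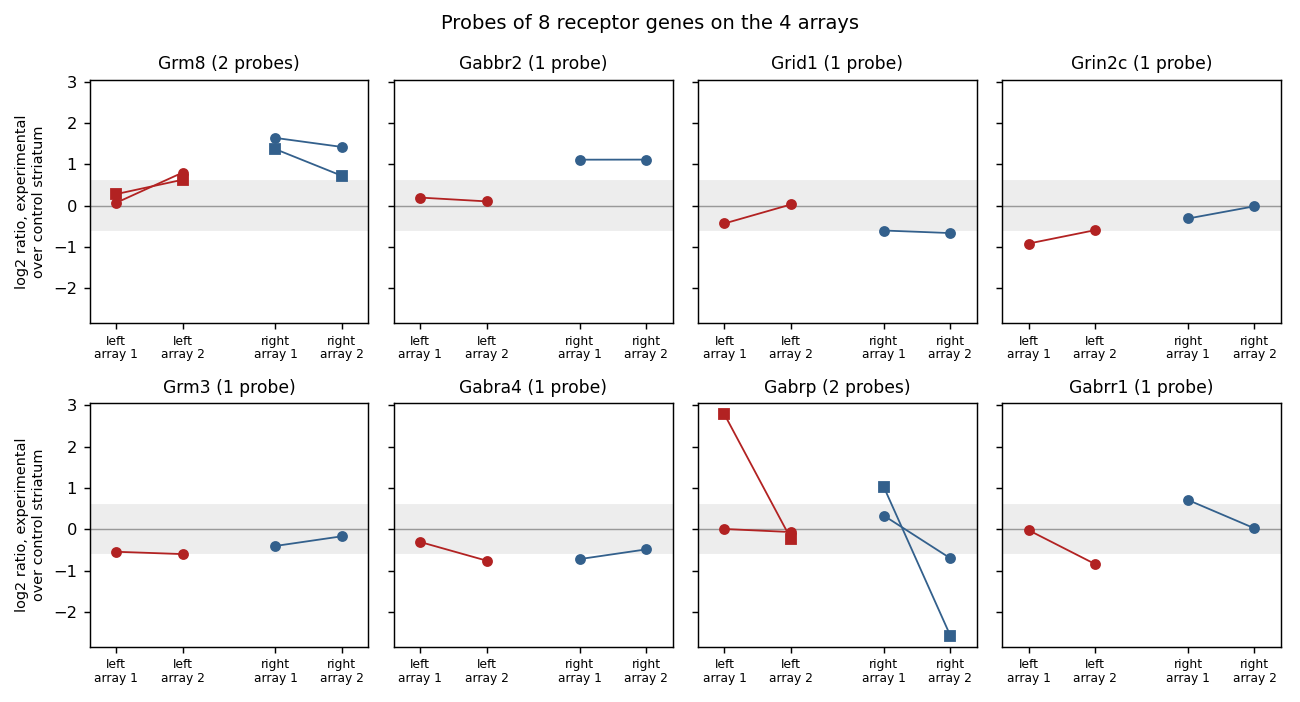
Log2 ratio of experimental over control striatum (vertical axis) for each probe of 8 receptor genes on the left pair (red) and right arrays 1 and 2 (blue); circles are RefSeq mRNA probes, squares the second probe, and the grey band marks 1.5-fold either way. Both probes of Grm8 lie above the band on the right, and the squares of Gabrp span 2.78 to -0.23 on the left arrays and 1.02 to -2.57 on the right arrays.

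Among the GABA-A subunits, 0 of 16 passed on either side. Gabra4, which joins delta subunits in receptors outside the synapse and is a striatal form, had -0.31 and -0.76 on the left pair and -0.72 and -0.49 on the right pair. It was below control on all 4 arrays, and on each side 1 array fell short of the threshold. Its means of -0.53 ± 0.23 and -0.60 ± 0.12 were the lowest of the alpha class on their sides. Its partner Gabrd was also below control on all 4 arrays, with means of -0.21 ± 0.14 (left) and -0.18 ± 0.13 (right).

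Gabra3 was the alpha subunit with the highest left mean. It read 0.72 and 0.14 on the left pair and 0.58 and 0.31 on the right pair, above control throughout and past the threshold on 1 array only. Gabra2, a main alpha subunit of striatum, had 0.10 ± 0.08 and 0.03 ± 0.09. Gabra5 read -0.47 and 0.53 on the left pair and -0.02 and 1.02 on the right pair, so array 1 lay below array 2 on both sides. Gabra6, of cerebellar granule cells, opposed itself between arrays, at 0.74 and -0.65 on the left and 1.53 and -1.31 on the right.

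The beta and gamma subunits complete the channel, gamma subunits being needed for benzodiazepine binding. Gabrb1 had -0.02 ± 0.25 on the left and 0.08 ± 0.26 on the right, and Gabrb2 0.14 ± 0.08 and -0.02 ± 0.19. Gabrg1 had -0.16 ± 0.07 and -0.03 ± 0.10, and Gabrg3 0.12 ± 0.11 and 0.07 ± 0.62. None of these means was beyond 0.2 of control. The rarer Gabre had -0.05 ± 0.41 and -0.03 ± 0.60 and Gabrq -0.05 ± 0.02 and 0.09 ± 0.02.

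The rho subunits, best known from retina, and the pi subunit, best known outside the brain, included several genes whose arrays lay far apart. Gabrr2 had -0.02 ± 0.08 on the left and -0.02 ± 0.08 on the right. Gabrr3 had 0.20 ± 0.09 on the left but 0.63 and -2.71 on the right pair. Gabrr1 had -0.02 and -0.84 on the left pair and 0.71 and 0.02 on the right pair. Gabrp had 1.39 and -0.15 on the left pair and 0.68 and -1.64 on the right pair, and its probe outside the RefSeq mRNA set carried most of the swing.

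Gabbr2, the GABA-B subunit that couples to the G protein, read 0.19 and 0.10 on the left pair and 1.11 and 1.11 on the right pair. The right pair was closer than that of any other receptor gene on either side. The right mean of 1.11 is 2.16-fold above control and ranked 212 of 14871, on a single RefSeq mRNA probe. Gabbr1, the subunit that binds GABA and with which it pairs, had -0.15 ± 0.04 on the left and -0.06 ± 0.09 on the right. Its 3 probes gave right means of -0.15, -0.03 and 0.01, so the obligate partners differed on the right while both lay near control on the left.

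Where the arrays of a side disagree by more than the threshold allows, a mean says little. A distance from the mean over 0.585 was found for 3 members on the left (Gria4, Gabra6 and Gabrp) and for 7 on the right (the same 3 with Gabre, Gabrg3, Gabrr3 and Grm6). That is 7.14% of the members beside 12.8% of all named genes on the left, and 16.7% beside 17.1% on the right. The 16 members with more than 1 probe had a median gap between their outermost probes of 0.28 on the left and 0.40 on the right, beside 0.28 and 0.32 over all 5658 named genes with more than 1 probe. The 4 genes called on a side had a distance of at most 0.22.

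**Figure D3:**
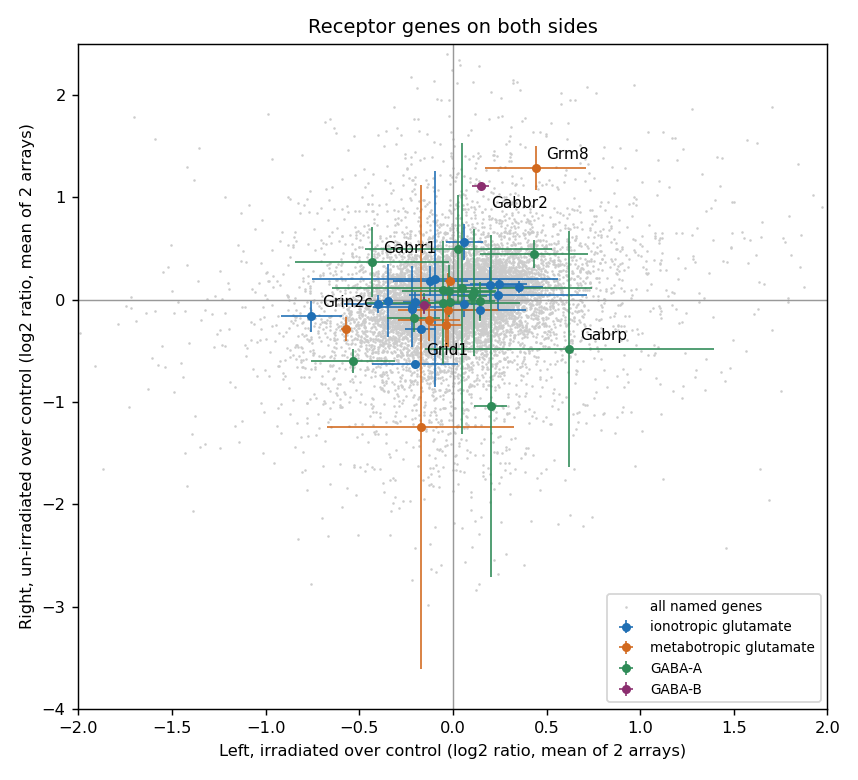
Mean log2 ratio on the left (horizontal axis) against the right (vertical axis) for receptor genes coloured by family, with bars to the 2 arrays, over all 14871 named genes in grey (some lie outside the axes); genes past the rule on a side or between sides are named. Grm8 and Gabbr2 are the highest receptor genes on the right axis, at 1.29 and 1.11, with 0.44 and 0.15 on the left axis, and Grin2c is the leftmost receptor gene at -0.76.

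The sides were then compared directly by subtracting right from left within each dye orientation, which removes a dye effect common to both arrays. Gabbr2 was lower on the left than on the right by this measure, at -0.92 and -1.01 in orientations 1 and 2. Grm8 had -1.33 and -0.36 and did not pass, although its RefSeq mRNA probe alone did, at -1.57 and -0.62. Grin2c had -0.61 and -0.58, just short in orientation 2, and passed with each array centred on its median, at -0.59 and -0.60. Grid1 had 0.17 and 0.69.

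The other genes past the rule between sides were Gabrr1, at -0.73 and -0.86, and Gabrp, at 0.72 and 1.49. Neither passed on a single side. With RefSeq mRNA probes alone the mean difference for Gabrp dropped to 0.16 and it no longer passed. In all 1 member was higher and 2 were lower on the left than on the right, where 2.60% and 2.26% of all genes were. At 2-fold 0 members passed (0.767% and 0.706% of all genes). At 1.3-fold 1 was higher and 4 lower (5.33% and 4.69%), with Gabra5 and Grin2c added. By feature 1 was higher and 4 lower (3.12% and 2.59%), the added features being probes of Grm8 and Gabra5.

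By class, the medians lay between -0.29 (metabotropic group II) and 0.06 (GABA-A beta) on the left, leaving out the single delta and group I receptors. On the right they lay between -0.22 (group III) and 0.53 (GABA-B), where Gabbr2 stood at 1.11 and Gabbr1 at -0.06. Over broader families the left medians were -0.12 for 17 ionotropic glutamate genes, -0.04 for 7 metabotropic genes, 0.01 for 16 GABA-A genes and 0.00 for the 2 GABA-B genes. On the right they were -0.03 for ionotropic, -0.19 for metabotropic, 0.01 for GABA-A and 0.53 for GABA-B genes. The ranges of the families overlapped on both sides, from -0.76 to 0.36 for ionotropic glutamate and -0.53 to 0.62 for GABA-A genes on the left, and from -0.63 to 0.56 and -1.04 to 0.50 on the right.

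**Figure D4:**
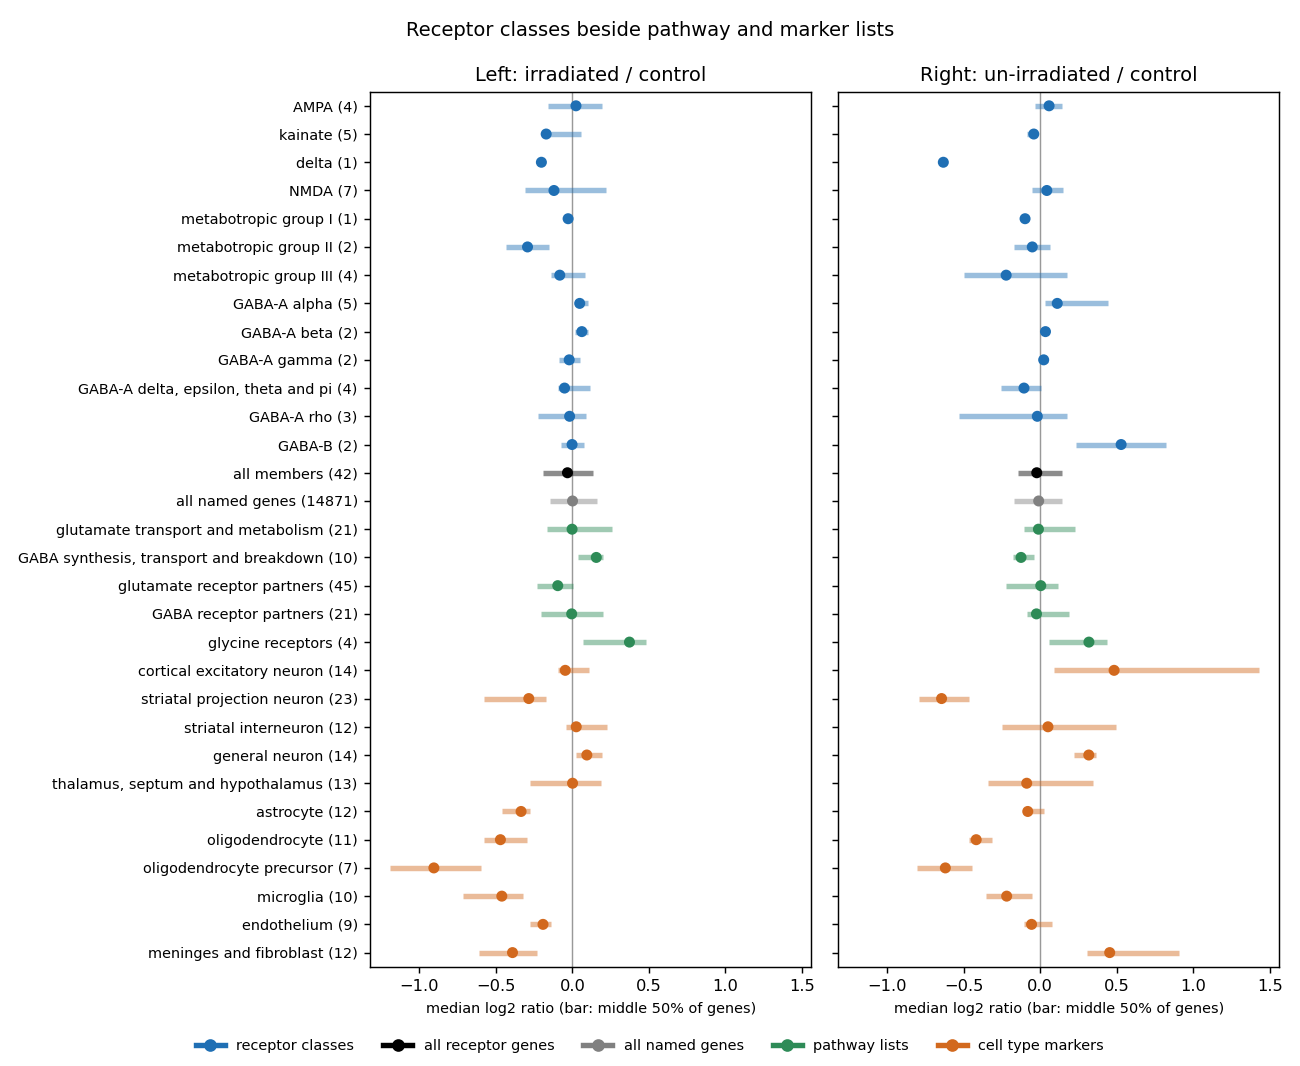
Median log2 ratio (dot) and middle 50% of genes (bar) per side for the receptor classes, pathway lists and cell type marker lists, with the number of genes in brackets. On the right the cortical list (0.48) and GABA-B (0.53) lie right of 0 and the striatal projection neuron list (-0.65) left of it; on the left the precursor list is lowest at -0.91.

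Genes that supply, recycle and anchor around these receptors were read beside them, from lists drawn up with earlier results of these data known. For scale, between 1.03% and 1.71% of all named genes passed the rule per side and direction. Counts of 0 or 1 gene do not set such a list apart from genes at large. Of 21 genes of glutamate transport and metabolism, 0 passed on the left and 1 on the right: Slc17a7, the vesicular glutamate transporter of cortical neurons, at 0.29 and 0.34 on the left pair and 1.45 and 0.98 on the right pair. The list medians were 0.00 and -0.01. The astrocyte uptake transporters Slc1a2 and Slc1a3 had -0.34 ± 0.24 and -0.32 ± 0.08 on the left and -0.08 ± 0.07 and -0.08 ± 0.11 on the right.

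Of 45 measured partners of glutamate receptors, 1 was lower on the left, and on the right 3 were higher and 1 lower (medians -0.10 left and 0.00 right). The left gene was Dlgap2, a scaffold of the postsynaptic density, at -0.60 and -0.65. On the right Nptxr and Nptx2, neuronal pentraxins that gather AMPA receptors, stood at 1.51 ± 0.00 and 0.71 ± 0.01, and Olfm1, a secreted protein found with AMPA receptors, at 1.95 ± 0.01. The same genes on the left were at 0.00 ± 0.19, 0.06 ± 0.08 and -0.02 ± 0.07. Cbln4, a cerebellin, was lower on the right at -1.06 and -0.79, while the cerebellins Cbln1 and Cbln2 had -0.22 ± 0.13 and -0.06 ± 0.36 there.

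Of 21 partners of GABA receptors, 0 passed on the left and 1 was higher on the right, Iqsec3, an exchange factor of inhibitory synapses, at 1.22 and 0.59 (medians 0.00 and -0.03). The main anchor gephyrin (Gphn) had 0.32 ± 0.14 on the left and -0.06 ± 0.15 on the right. The GABA-B auxiliary subunits Kctd8 and Kctd12 had -0.28 ± 0.28 and 0.43 ± 0.32 on the left and -0.29 ± 0.13 and 0.15 ± 0.31 on the right.

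Markers of several cell types were also past the rule on these sides. Among all named genes, the right side had 1.71% past it upward and 1.46% downward. For the left side these shares were 1.18% and 1.03%. On the right, 5 of 14 cortical excitatory neuron markers were higher and 0 lower (median 0.48, range -0.27 to 2.35), namely Nrn1 at 2.35 ± 0.07, Neurod2 at 1.95 ± 0.23, Cck, Neurod1 and Slc17a7. On the same side 8 of 23 striatal projection neuron markers were lower and 0 higher (median -0.65, range -1.31 to -0.26), and these were Drd1, Adora2a, Pdyn, Rgs9, Gpr6, Foxp1, Foxp2 and Adcy5. The calls of Adora2a and Adcy5 are marginal, with array 2 at -0.588 and -0.591. Of 14 general neuron markers 12 were above control on both right arrays (median 0.32), where 21.4% of all named genes were, and Elavl4 passed. Of 12 meningeal and fibroblast markers 4 were higher on the right (Ogn, Fmod, Igf2 and Aldh1a2, median 0.45), while on the left 3 were lower (Dcn, Ogn and Foxc1, median -0.39). The other left medians were -0.05 for the cortical list, with 1 of 14 lower (Emx2), -0.28 for projection neurons, with 2 of 23 lower (Rgs9 and Scn4b), and 0.09 for general neurons, with 0 of 14 past the rule. The part of these differences in the values of Grm8, Gabbr2 and Grid1 was not tested, and fewer cells of a type cannot be told apart from less RNA per cell.

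On the left, where Grin2c was lower and Grm3 below control, 10 of 12 astrocyte markers were below control on both arrays, beside 23.0% of all named genes. This was not particular to astrocytes. So were 10 of 12 meningeal and fibroblast, 8 of 10 microglia, 7 of 9 endothelial and 6 of 7 oligodendrocyte precursor markers. The same held for 17 of 23 projection neuron and 7 of 11 oligodendrocyte markers. Smaller shares were 5 of 13 thalamic, septal and hypothalamic, 4 of 14 cortical, 2 of 12 interneuron and 1 of 14 general neuron markers. Past the rule were 2 of 12, Gjb6 at -0.77 ± 0.04 and Slco1c1 at -0.66 ± 0.01, beside 1.03% of all named genes. The list's left median was -0.34 (range -0.77 to 0.02), against -0.08 on the right (range -0.21 to 0.16). Oligodendrocyte precursor markers had left and right medians of -0.91 and -0.62, with 4 of 7 lower on the left (Pdgfra, Neu4, Bcas1 and Vcan) and 1 on the right (Pdgfra). The microglia markers had -0.46 and -0.22, with 3 of 10 lower on the left (P2ry12, C1qa and Ctss) and 1 on the right (P2ry12). Oligodendrocyte markers had -0.47 and -0.42 with 1 and 0 of 11 lower (Olig1), and endothelium -0.19 and -0.06 with 0 of 9 on either side. Striatal interneuron markers had 0.03 and 0.05 with 0 and 1 of 12 higher (Vip), and thalamic, septal and hypothalamic markers 0.00 and -0.09 with 0 and 1 of 13 lower (Cartpt). The part of these marker differences in the Grin2c and Grm3 values was not tested.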

How the data were processed

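The authors deposited 1 value per feature and array, made with Agilent Feature Extraction 8.1 per the submitters' processing notes. Background and dye settings were not given. The deposited values were taken to be log10 of Cy5 over Cy3, as Feature Extraction exports them, although base, centring and direction are not stated with the table. They were multiplied by 3.32 to give log2, and array 2 of each side was turned. Column medians as deposited (log10) were 0.00418 and 0.00444 on the left and 0.00832 and 0.0111 on the right.

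Features were named from GEO's platform annotation, with symbols updated through the RefSeq gene table of GRCr8: 23535 features had 1 gene, 48 several (not named) and 20045 none. All 62 receptor features matched the RefSeq table. Members were symbols of the families Gria, Grik, Grid, Grm, Grin, Gabr and Gabbr. Promoters were credited to RefSeq, of which 30 of 42 genes had one. The members and lists were chosen with earlier results of these data known. By rule, receptor genes past 1.5-fold on a side or between sides, by gene or by probe, are given on every array, the others as mean and spread by class, and listed genes past it on a side by name. Readings on single arrays of Gria2, Gria4, Grik1, Grin2d, Grm3, Grm6, Gabra3, Gabra4, Gabra6, Gabrr3 and Gabrq, and the other listed genes given, were added after their values were seen. Turning and calling were run on simulated data built with array 2 reversed. Such data cannot tell whether the deposited array 2 had already been turned. Alternatives were other directions, centring, log base, probes, arrays and thresholds. No test was possible with 1 replicate per side. Precision is limited by there being 4 arrays. Calculations used Python 3.11.15, numpy 2.4.6 and pandas 2.3.3.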

Additional observations from a re-analysis of the deposited data

Results flagged for a closer look

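Among the receptor genes, Gabrq and Gabrr1 were below control on both left arrays and above control on both right arrays. The left minus right difference was -0.14 for Gabrq, with -0.03 and -0.07 on the left pair and 0.11 and 0.08 on the right pair. For Gabrr1 it was -0.80, with -0.02 and -0.84 on the left and 0.71 and 0.02 on the right. The difference was not tested for either gene. This applies to 2 of 42 receptor genes (4.76%), beside 1016 of 14871 named genes (6.83%).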

How the results depend on the processing

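Grm8, Gabbr2 and Grid1 kept their right calls with each array centred on its median, and Grm8 with its RefSeq mRNA probe alone. Averaging probes otherwise cannot change Gabbr2 or Grid1, which have 1 probe, and a call on both arrays holds on each alone by construction. Taking array 2 as already turned ended every reported call, also by construction since a call needs one sign on both arrays, with Grm8 at 0.22 and Grin2c at -0.16. It instead gave 1 member higher and 0 lower on the left (Gabra6), 5 higher and 0 lower on the right (Gabra6, Gabrp, Gabrr3, Gria4 and Grm6), 0 higher and 2 lower between sides (Gabra6 and Grm6), and medians of 0.056 and 0.024. It also put Gabbr2 at -0.00087 and Grid1 at 0.031 on the right, and the differences between sides at 0.047 for Gabbr2, -0.39 for Gabrp and 0.067 for Gabrr1, all opposite in sign to the values reported; the ranks and shares of all genes rest on array 2 being turned. Centring left 0 lower on the left and gave 3 lower between sides, with Grin2c added; the median over probes also gave 3, with Gria3 added at -0.67 and -0.61. Reading the values as log2 left 0 lower on the left, 0 higher and 0 lower on the right, 0 higher and 0 lower between sides and a right median of -0.0070; this only shrinks every value. RefSeq mRNA probes alone left 0 higher between sides. Array 1 alone gave 3 higher on the left, 9 higher and 2 lower on the right, 8 lower between sides and a right median of 0.026. Array 2 alone gave 2 higher and 7 lower on the left, 4 higher and 7 lower on the right, 5 higher and 4 lower between sides, and medians of -0.091 and 0.0033. A single array does not separate dye from RNA, and put 7.05% to 15.3% of all named genes past the threshold in each direction. At 2-fold 0 were lower on either side and 0 passed between sides; at 1.3-fold 2 were lower on each side and 4 between sides, and counting probes gave 4 lower between sides. Without spot intensities, a ratio from a dim spot could not be told from one of a bright spot.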

Other observations

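None of 10 measured genes that make, store and clear GABA or set its chloride gradient passed the 1.5-fold rule on a side. Of all named genes, 1.03% to 1.71% passed it in each direction of a side. They had a median of 0.16 on the left and -0.13 on the right, with 5 above and 2 below control on both left arrays (23.0% of all named genes each) and 1 above and 7 below on both right arrays (21.4% and 21.6%). Gad1, the main GABA-synthesising enzyme, had 0.50 ± 0.13 on the left and -0.08 ± 0.04 on the right, and Gad2, its synaptic relative, 0.20 ± 0.07 and -0.10 ± 0.07. The vesicular transporter Slc32a1 had 0.15 ± 0.13 and -0.16 ± 0.14, and the GABA-degrading Abat 0.03 ± 0.05 and -0.34 ± 0.03. Slc6a13, a GABA transporter that meninges also carry, went the other way at -0.54 ± 0.10 and 0.42 ± 0.12, and passed between sides with a mean difference of -0.96. The chloride exporter Slc12a5 was above control by its mean on both sides (0.27 ± 0.29 and 0.30 ± 0.51), and the channel Best1 below on both (-0.16 ± 0.15 and -0.17 ± 0.17).

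Glycine receptors, the other inhibitory chloride channels, were measured by 4 genes, of which 0 passed on either side (1.03% to 1.71% of all named genes in each direction). Glrb, the subunit that ties them to gephyrin, had 0.33 ± 0.01 on the left and 0.41 ± 0.10 on the right. The alpha subunits Glra1, Glra2 and Glra3 had -0.70 ± 0.90, 0.67 ± 0.32 and 0.42 ± 0.18 on the left and 0.51 ± 0.93, 0.23 ± 0.87 and -0.46 ± 0.41 on the right.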
